A study of Mus musculus with 64 samples.

Results

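Pericentral hepatocyte genes are described here as 10 genes, Glul, Cyp1a2, Cyp2e1, Oat, Axin2, Lgr5, Tbx3, Slc1a2, Rhbg and Gulo, chosen by symbol and all found among the 53008 gene names of the liver count table. Liver total RNA was sequenced after 16 weeks on diet in 4 groups of mice: HuMgat2 fed a high-fat diet (HFD), HuMgat2 fed chow, wild type (WT) fed HFD and WT fed chow. HuMgat2 is a humanized line that expresses human MOGAT2, an enzyme that makes diacylglycerol from monoacylglycerol, and the WT mice carry mouse Mgat2. The promoter that drives the human gene, the strain background, the sex and the age of the mice are not given in the sources used here. Each group had 4 libraries, numbered 9 to 12 for HuMgat2 on HFD, 13 to 16 for HuMgat2 on chow, 1 to 4 for WT on HFD and 5 to 8 for WT on chow. The labels do not state that each library came from a different mouse, so the p-values measure the spread between these libraries, which may be technical.

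Hepatocytes along the path from the portal to the central vein differ in the enzymes they express. Those around the central vein receive Wnt ligands and R-spondin from the neighbouring endothelium, and the resulting beta-catenin activity keeps on a pericentral programme that covers glutamine synthesis, drug oxidation by cytochrome P450 enzymes and several transporters. Periportal hepatocytes carry urea synthesis, gluconeogenesis and glutaminase instead.

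Total counts ranged from 12.4 to 25.8 M per library. WT HFD library 4 stood apart, with 12.4 M counts, albumin (Alb) at 0.850% of counts against 3.26% to 6.02% in the other 15 libraries, and a median Spearman correlation with its own group of 0.954 against 0.978 to 0.990. HuMgat2 chow library 14 had the lowest level of its group in 9 of the 10 genes, with a median deviation from the other 3 libraries of -0.57 on the log2 scale, and in Oat it was the highest of its group. Mouse Mogat2 had 0 to 2 counts in each HuMgat2 library, 2 to 12 in each WT HFD library and 0 to 2 in each WT chow library, and the table has no entry for the human gene. The summed level of 5 hepatocyte marker genes was 64544 to 76736 counts per M (CPM) in HuMgat2 on HFD, 68018 to 92830 CPM in HuMgat2 on chow, 34642 to 68455 CPM in WT on HFD and 77443 to 92467 CPM in WT on chow. The 34642 CPM was that of library 4, and the other 3 WT HFD libraries had 67054 to 68455 CPM.

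Levels below are CPM scaled by TMM (a library scaling from edgeR), as mean ± SD with n = 4 libraries in each group. Rises and falls are stated for genes whose adjusted p was below 0.05 in the edgeR quasi-likelihood test, with Benjamini-Hochberg adjustment over 17318 genes, and log2 changes carry their SE. All 10 genes passed the filter on low counts, which 17318 of 53008 genes passed. In HuMgat2 mice on HFD against chow 0 of the 10 genes rose, where 7.56% of all tested genes rose, and 3 fell, where 6.4% fell. In WT mice on HFD against chow 3 rose, against 8.37% of all tested genes, and 1 fell, against 6.74%. Between HuMgat2 and WT on HFD 0 were higher in HuMgat2, against 7.21% of all tested genes, and 3 were lower, against 7.56%. Between HuMgat2 and WT on chow 1 was higher, against 0.266% of all tested genes, and 0 were lower, against 0.243%. In the test of the interaction, which subtracts the diet change of WT mice from that of HuMgat2 mice, 0 of the 10 were positive, against 2.61% of all tested genes, and 3 were negative, against 2.26%.

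The median log2 change of the 10 genes on HFD against chow was -0.19 in HuMgat2 and 0.46 in WT, where the median over all tested genes was -0.013 in HuMgat2 and 0.034 in WT. Cyp1a2 was called in both diet comparisons, Oat and Slc1a2 in opposite directions in the 2 genotypes, and Gulo in WT. Glul, Cyp2e1, Rhbg, Axin2, Lgr5 and Tbx3 were called in no comparison of the main test. For 8 of the 10 genes, Axin2 and Tbx3 being the exceptions, at least 1 call was lost or gained in an alternative, and the main ones are given beside each gene. Without HuMgat2 chow library 14 the log2 diet change in HuMgat2 was -3.59 for Cyp1a2, -0.68 for Oat and -0.49 for Slc1a2, all still called. Without WT HFD library 4 the log2 diet change in WT was 0.68 for Oat, 0.52 for Slc1a2 and 0.72 for Gulo, all still called, while that of Cyp1a2 was -0.62 and no longer called.

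**Figure D1:**
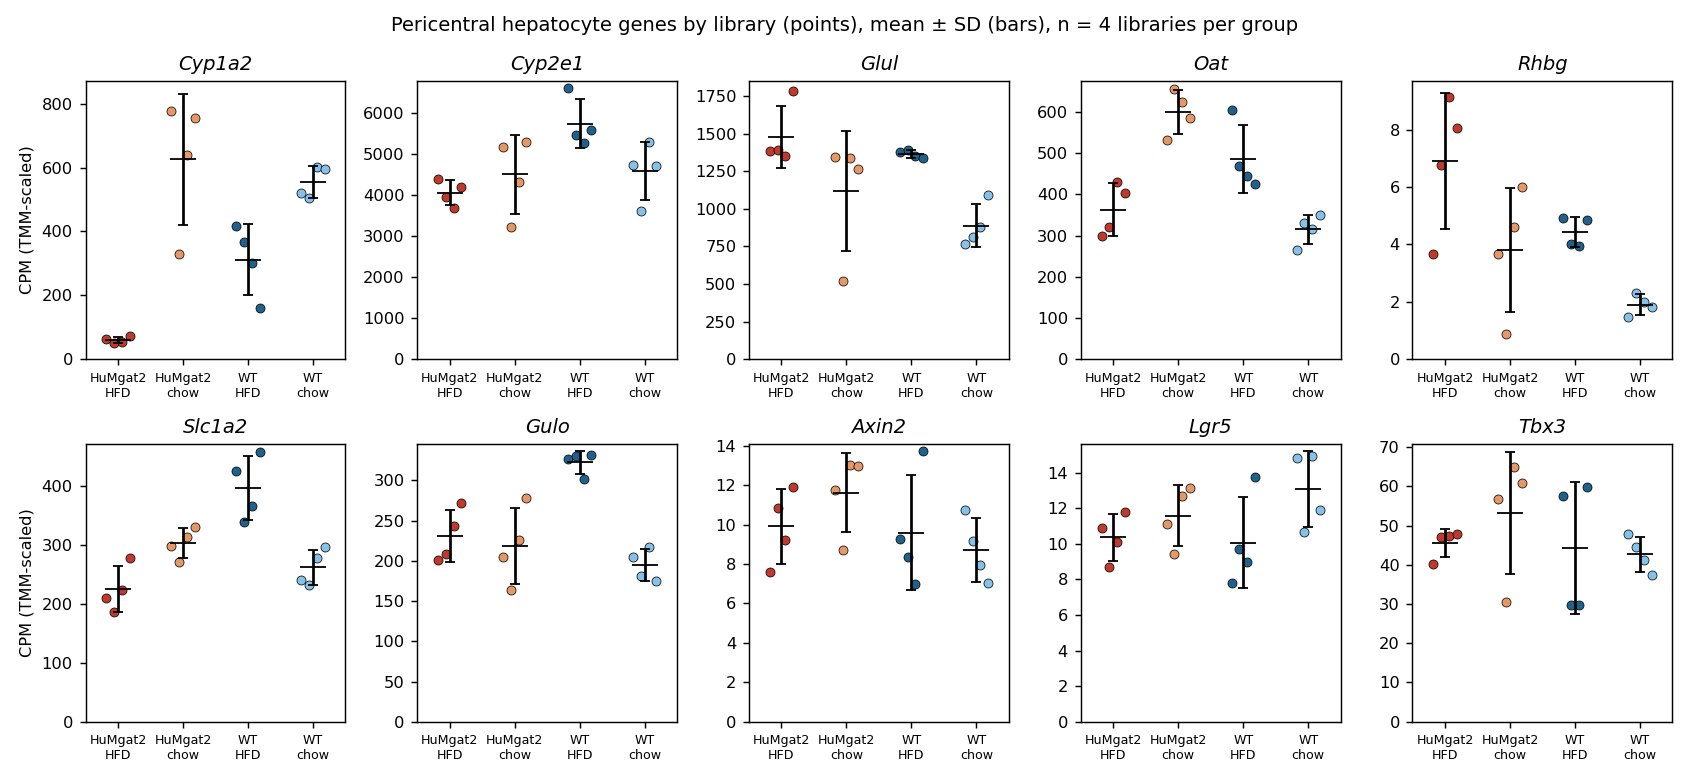
TMM-scaled CPM of the 10 pericentral hepatocyte genes in each of 16 libraries (points), with the mean ± SD of each group (bars, n = 4), for HuMgat2 HFD, HuMgat2 chow, WT HFD and WT chow. Cyp1a2 in the 4 HuMgat2 HFD libraries lies between 51.7 and 72.5 CPM, below every library of the other groups, while Axin2, Lgr5 and Tbx3 overlap between all groups.

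Cyp1a2 (ENSMUSG00000032310, GRCm39 chromosome 9, 57584220 to 57590986, minus strand) encodes a P450 enzyme that oxidises caffeine and aromatic amines. It had 63.4, 51.7, 52.9 and 72.5 CPM in HuMgat2 on HFD, against 778, 330, 641 and 757 CPM in HuMgat2 on chow. No library of either group reached the other, and the fall was 10.4-fold (log2 -3.38 ± 0.29, adjusted p = 3.05e-06, edgeR). In WT it had 416, 368, 300 and 161 CPM on HFD, against 520, 506, 602 and 595 CPM on chow. Here too the groups did not overlap, and the lowest HFD value was that of library 4.

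In WT mice Cyp1a2 fell 1.79-fold on HFD (log2 -0.84 ± 0.26, adjusted p = 0.0419, edgeR). Without library 4 the log2 change was -0.62 (adjusted p = 0.0694), and the call was also lost on leaving out any one of libraries 3, 5, 6, 7, 8, 9, 10, 11 or 15 (adjusted p = 0.0512 to 0.0905) and in a test of the 2 WT groups alone (log2 -0.85, adjusted p = 0.0672). On HFD, Cyp1a2 stood 5.18-fold below its WT level in HuMgat2 (log2 -2.37 ± 0.28, adjusted p = 4.06e-05, edgeR). On chow it averaged 626 ± 206 CPM in HuMgat2 and 556 ± 49.6 CPM in WT, with overlapping ranges (log2 0.17, 95% interval -0.38 to 0.72, adjusted p = 0.871, edgeR). The diet change was lower in HuMgat2 than in WT by 2.54 on the log2 scale (log2 -2.54 ± 0.38, adjusted p = 0.000934 for the interaction, edgeR), and this held in all 22 alternatives run, with log2 values of -2.97 to -2.37.

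In a bulk liver sample, fewer cells of a type and less RNA per cell cannot be told apart. Of 6 stellate cell markers 5 rose in HuMgat2 mice on HFD, and their summed level was 368 to 434 CPM in HuMgat2 on HFD against 191 to 310 CPM in HuMgat2 on chow. Of 9 markers of central vein and sinusoidal endothelium 2 rose in the same comparison, with sums of 292 to 297 CPM in HuMgat2 on HFD against 232 to 268 CPM in HuMgat2 on chow. Of 7 macrophage markers 2 rose there, with sums of 119 to 141 CPM in HuMgat2 on HFD against 87.4 to 113 CPM in HuMgat2 on chow. The 1 adipocyte marker of 4 that was tested rose there too, and the sums of the 4 were 3.05 to 6.97 CPM in HuMgat2 on HFD against 0 to 0.375 CPM in HuMgat2 on chow. In WT mice on HFD against chow 5 of the 7 macrophage markers rose, with sums of 107 to 333 CPM in WT on HFD, highest in library 4, against 72.8 to 131 CPM in WT on chow. The tested adipocyte marker rose in WT as well, and the sums of the 4 were 0.159 CPM in library 4 and 78.9 to 130 CPM in the other 3 WT HFD libraries, against 0.136 to 0.416 CPM in WT on chow. Library 4 also had the highest sum of 5 lymphocyte markers (15.8 CPM) and of 3 neutrophil markers (9.37 CPM) in its group. On HFD 2 of 4 tested lymphocyte markers were lower in HuMgat2 than in WT, with sums over the 5 of 2.12 to 2.79 CPM in HuMgat2 and 3.69 to 15.8 CPM in WT. In that comparison 2 of 6 stellate cell markers, 1 of 9 endothelial markers and 1 of 3 erythroid markers were higher. The tested adipocyte marker and 1 of 5 hepatocyte markers were lower there. Of the 5 hepatocyte markers, 1 also fell and 0 rose in HuMgat2 on HFD against chow, and 0 were called in WT. The part of these cell types in the changes of the 10 genes was not tested.

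Cyp2e1 (ENSMUSG00000025479, chromosome 7, 140343652 to 140354900, plus strand) encodes the P450 enzyme that oxidises ethanol and paracetamol, and per kb of exon it was the most abundant of the 10 genes in all 4 groups. It averaged 4061 ± 304 CPM in HuMgat2 on HFD, 4509 ± 966 CPM in HuMgat2 on chow, 5746 ± 598 CPM in WT on HFD and 4593 ± 700 CPM in WT on chow. The HFD libraries of the 2 genotypes did not overlap, at 3696 to 4392 CPM in HuMgat2 and 5281 to 6621 CPM in WT, and the difference was 1.41-fold (log2 -0.50 ± 0.19, adjusted p = 0.0825, edgeR). It passed the threshold in DESeq2 (log2 -0.48, adjusted p = 0.0188), and it did not on leaving out any single library (adjusted p = 0.0520 to 0.185, edgeR). Cyp1a2 was second by level per kb in both chow groups, at 311 CPM per kb in HuMgat2 and 276 CPM per kb in WT. On HFD it ranked 5 in HuMgat2, at 29.9 CPM per kb, and 4 in WT, at 155 CPM per kb.

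Promoter sequences of these P450 genes and of the transporter and aminotransferase genes described next are shown because their transcripts moved with diet or, for Cyp2e1, hold the highest level. Of the 10 genes 6 (Glul, Slc1a2, Oat, Cyp2e1, Cyp1a2 and Axin2) matched a table of RefSeq promoters on GRCm38.p6, each window running from 250 bases before to 50 bases after the start. Each is written 5′ to 3′ on the strand of its gene, and capitals mark CTTTGA or its reverse complement TCAAAG, the core letters bound by TCF and LEF, the DNA-binding partners of beta-catenin. The windows are chr9:57683606-57683905 (minus strand) for Cyp1a2, chr7:140763569-140763868 (plus strand) for Cyp2e1, chr2:102706188-102706487 (plus strand) for Slc1a2 and chr7:132576349-132576648 (minus strand) for Oat.
Cyp1a2: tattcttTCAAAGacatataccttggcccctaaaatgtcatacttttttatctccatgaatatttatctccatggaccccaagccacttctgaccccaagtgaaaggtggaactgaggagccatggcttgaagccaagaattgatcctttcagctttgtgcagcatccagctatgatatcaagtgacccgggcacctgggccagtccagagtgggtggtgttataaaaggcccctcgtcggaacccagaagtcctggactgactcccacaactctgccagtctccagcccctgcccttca
Cyp2e1: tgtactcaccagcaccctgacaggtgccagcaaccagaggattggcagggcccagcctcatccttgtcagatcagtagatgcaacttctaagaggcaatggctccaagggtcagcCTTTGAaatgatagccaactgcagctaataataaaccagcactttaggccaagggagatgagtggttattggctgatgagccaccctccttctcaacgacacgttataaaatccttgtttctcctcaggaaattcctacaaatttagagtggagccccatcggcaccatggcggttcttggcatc
Slc1a2: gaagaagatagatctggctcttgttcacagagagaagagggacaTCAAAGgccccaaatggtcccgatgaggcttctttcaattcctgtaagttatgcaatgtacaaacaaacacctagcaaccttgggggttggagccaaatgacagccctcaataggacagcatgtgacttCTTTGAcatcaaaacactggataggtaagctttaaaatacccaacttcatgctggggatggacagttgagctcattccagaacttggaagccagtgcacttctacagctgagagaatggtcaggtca
Oat: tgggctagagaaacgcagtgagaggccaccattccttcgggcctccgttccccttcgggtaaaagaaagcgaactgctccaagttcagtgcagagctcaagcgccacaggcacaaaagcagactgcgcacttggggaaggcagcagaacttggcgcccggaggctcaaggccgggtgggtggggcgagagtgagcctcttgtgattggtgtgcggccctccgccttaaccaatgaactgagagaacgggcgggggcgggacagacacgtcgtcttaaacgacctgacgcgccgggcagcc
CTTTGA on either strand occurred in 3 of the 6 windows, with its first base at -243 in Cyp1a2, at -135 in Cyp2e1 and at -206 and -77 in Slc1a2, counted from the start listed for each window. Windows were matched to genes by symbol, and the listed starts were not compared with the GRCm39 gene models used for the counts. It occurred in 16.0% of all 32851 windows of that length. The core of the site bound by the aryl hydrocarbon receptor, GCGTG on either strand, occurred in 0 of the 6 windows and in 32.4% of all windows. With 0 matches of GCGTG, no matches of the 2 motifs overlapped, and a match is a description of these windows alone.

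Glul, Oat, Slc1a2 and Rhbg handle glutamate, glutamine, ornithine and ammonium. Oat (ENSMUSG00000030934, chromosome 7, 132159207 to 132178127, minus strand), ornithine aminotransferase, turns ornithine into glutamate semialdehyde in mitochondria. It had 298, 322, 430 and 403 CPM in HuMgat2 on HFD, against 532, 656, 625 and 585 CPM in HuMgat2 on chow, and it fell without overlap (log2 -0.72 ± 0.15, adjusted p = 0.00334, edgeR). In WT it had 606, 468, 445 and 426 CPM on HFD, against 266, 331, 315 and 349 CPM on chow, and it rose without overlap (log2 0.62 ± 0.15, adjusted p = 0.00937, edgeR).

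The interaction of Oat was called (log2 -1.35 ± 0.21, adjusted p = 0.00126, edgeR). Oat was the 1 gene of the 10 called between the genotypes on chow, where it averaged 600 ± 53.5 CPM in HuMgat2 and 315 ± 35.6 CPM in WT, a 1.90-fold difference (log2 0.93 ± 0.15, adjusted p = 0.00339, edgeR). On HFD it averaged 363 ± 63.4 CPM in HuMgat2 and 486 ± 81.9 CPM in WT (log2 -0.42 ± 0.15, adjusted p = 0.0616, edgeR). That difference passed the threshold without WT HFD library 4 (log2 -0.48, adjusted p = 0.0371), without HuMgat2 HFD library 11 (log2 -0.51, adjusted p = 0.0495) and in DESeq2 (log2 -0.40, adjusted p = 0.0360).

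Slc1a2 (ENSMUSG00000005089, chromosome 2, 102489004 to 102621129, plus strand) encodes the glutamate transporter GLT-1, which brings glutamate into pericentral cells. It had 210, 186, 223 and 278 CPM in HuMgat2 on HFD, against 298, 270, 313 and 330 CPM in HuMgat2 on chow, and 1 HFD library lay above the lowest chow library. In WT it had 424, 338, 365 and 457 CPM on HFD, against 240, 232, 278 and 295 CPM on chow, with no overlap. It rose 1.52-fold in WT (log2 0.60 ± 0.14, adjusted p = 0.00761, edgeR) and on HFD its HuMgat2 level was 1.77-fold below that of WT (log2 -0.82 ± 0.14, adjusted p = 0.000836, edgeR).

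Slc1a2 also fell in HuMgat2 on HFD (log2 -0.44 ± 0.14, adjusted p = 0.0405, edgeR). That call was lost on leaving out any one of libraries 5, 7, 9, 10, 11, 13, 15 or 16 (adjusted p = 0.0508 to 0.140), with no filter on low counts (adjusted p = 0.0815) and without mitochondrial, ribosomal RNA and hemoglobin genes (adjusted p = 0.0536). The interaction was called (log2 -1.04 ± 0.19, adjusted p = 0.00465, edgeR) and stayed below the threshold in all 22 alternatives run. On chow the genotypes overlapped, at 303 ± 25.4 CPM in HuMgat2 and 261 ± 30.4 CPM in WT (log2 0.21, 95% interval -0.072 to 0.50, adjusted p = 0.614, edgeR).

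Glul (ENSMUSG00000026473, chromosome 1, 153775690 to 153785469, plus strand) encodes glutamine synthetase, the enzyme that removes ammonium in the innermost ring of pericentral cells. It had 1386, 1395, 1352 and 1788 CPM in HuMgat2 on HFD, against 1349, 518, 1338 and 1267 CPM in HuMgat2 on chow. In WT it had 1381, 1395, 1351 and 1337 CPM on HFD, against 767, 813, 879 and 1089 CPM on chow. The HFD libraries lay above the chow libraries in both genotypes, by a narrow margin in HuMgat2, where library 14 was also far below the other 3 of its group.

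Neither diet difference of Glul passed the threshold in edgeR, in HuMgat2 (log2 0.41 ± 0.23, adjusted p = 0.273) or in WT (log2 0.62 ± 0.23, adjusted p = 0.0781). The WT difference had a log2 value of 0.62 (adjusted p = 0.00691) once HuMgat2 chow library 14, which adds to the shared estimate of spread, was left out, and it also passed in DESeq2 (log2 0.60, adjusted p = 0.0465) and in a test of the 2 WT groups alone (log2 0.61, adjusted p = 0.0414). The HuMgat2 difference was 0.17 without library 14 (adjusted p = 0.509). The interaction was -0.22 (95% interval -0.90 to 0.47, adjusted p = 0.774, edgeR).

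Rhbg (ENSMUSG00000104445, chromosome 3, 88150181 to 88162016, minus strand) encodes an ammonium transporter of the Rhesus family. It had 3.66, 6.77, 9.14 and 8.07 CPM in HuMgat2 on HFD, against 3.68, 0.873, 4.62 and 5.99 CPM in HuMgat2 on chow. In WT it had 4.93, 4.01, 3.93 and 4.85 CPM on HFD, against 1.46, 2.31, 1.99 and 1.83 CPM on chow. The WT groups did not overlap, and the HuMgat2 groups did.

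The WT diet difference of Rhbg was just above the threshold (log2 1.21 ± 0.40, adjusted p = 0.0522, edgeR). It passed in 8 of 23 alternatives, among them without HuMgat2 chow library 14 (adjusted p = 0.00535), without library 9 (adjusted p = 0.0432), without library 16 (adjusted p = 0.0432), in DESeq2 (adjusted p = 0.0192) and in the 2 WT groups alone (adjusted p = 0.00524). In HuMgat2 the diet difference was not called (log2 0.88 ± 0.38, adjusted p = 0.140, edgeR). On chow Rhbg averaged 3.79 ± 2.16 CPM in HuMgat2 and 1.90 ± 0.353 CPM in WT (log2 0.98 ± 0.40, adjusted p = 0.382, edgeR), and without library 14 that difference was called (log2 1.33, adjusted p = 0.0297).

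**Figure D2:**
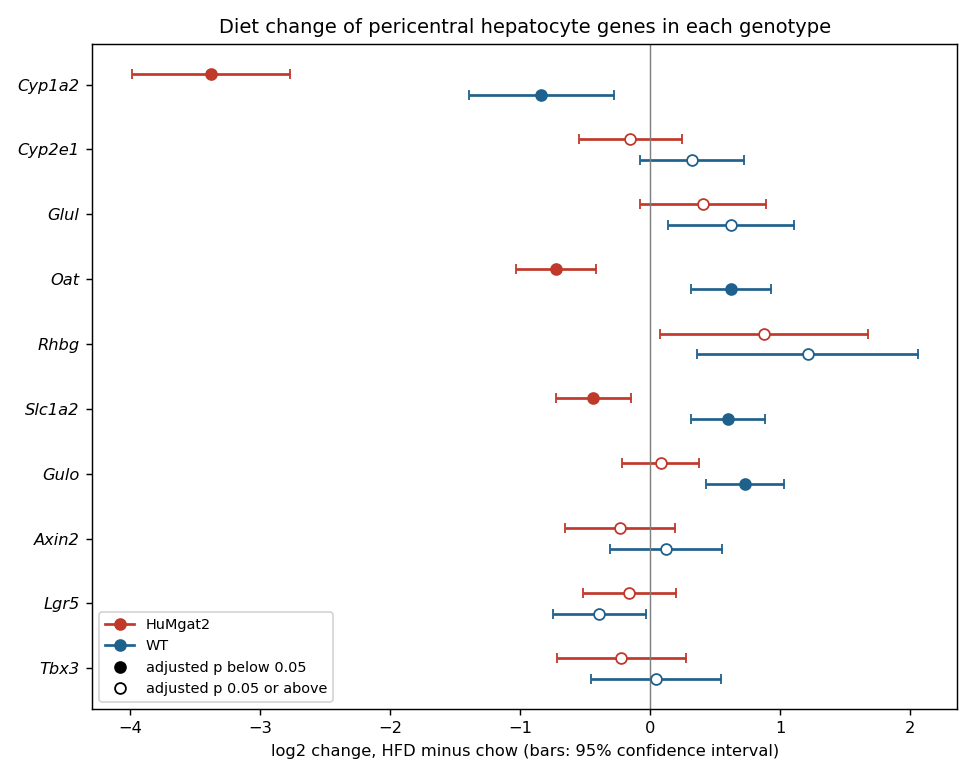
Log2 change on HFD against chow for each gene in HuMgat2 (upper point of each pair) and WT (lower point), from the edgeR fit, with 95% confidence intervals (bars) and filled points where the adjusted p is below 0.05. Oat and Slc1a2 are filled on opposite sides of 0, at -0.72 and -0.44 in HuMgat2 and at 0.62 and 0.60 in WT.

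Gulo (ENSMUSG00000034450, chromosome 14, 66224235 to 66246656, minus strand) encodes L-gulonolactone oxidase, the last enzyme of vitamin C synthesis in mice. It had 201, 209, 243 and 271 CPM in HuMgat2 on HFD, against 205, 164, 225 and 279 CPM in HuMgat2 on chow, and these ranges overlapped. In WT it had 326, 331, 302 and 332 CPM on HFD, against 204, 181, 217 and 175 CPM on chow, with every HFD library above every chow library. It rose 1.66-fold in WT (log2 0.73 ± 0.14, adjusted p = 0.00284, edgeR).

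On HFD the HuMgat2 level of Gulo was 1.40-fold below that of WT (log2 -0.48 ± 0.14, adjusted p = 0.0307, edgeR), and all 4 HuMgat2 libraries lay below all 4 WT libraries. That call was lost on leaving out any one of libraries 1, 2, 9, 10 or 11 (adjusted p = 0.0510 to 0.0947) and with no filter on low counts (adjusted p = 0.0636). The diet difference in HuMgat2 was 0.081 (95% interval -0.22 to 0.38, adjusted p = 0.759, edgeR). The interaction did not pass (log2 -0.65 ± 0.20, adjusted p = 0.0746, edgeR), and it did without library 14 (log2 -0.76, adjusted p = 0.0193) and in DESeq2 (log2 -0.64, adjusted p = 0.0355).

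Axin2, Lgr5 and Tbx3 are read as targets of beta-catenin. Axin2 (ENSMUSG00000000142, chromosome 11, 108811175 to 108841609, plus strand), which encodes a scaffold that turns the Wnt signal off, averaged 9.90 ± 1.89 CPM in HuMgat2 on HFD, 11.6 ± 2.01 CPM in HuMgat2 on chow, 9.59 ± 2.92 CPM in WT on HFD and 8.71 ± 1.60 CPM in WT on chow. Lgr5 (ENSMUSG00000020140, chromosome 10, 115286216 to 115423685, minus strand), a receptor for R-spondins, averaged 10.4 ± 1.31 CPM in HuMgat2 on HFD, 11.6 ± 1.69 CPM in HuMgat2 on chow, 10.1 ± 2.57 CPM in WT on HFD and 13.1 ± 2.14 CPM in WT on chow. Tbx3 (ENSMUSG00000018604, chromosome 5, 119808734 to 119822789, plus strand), a T-box transcription factor, averaged 45.5 ± 3.66 CPM in HuMgat2 on HFD, 53.2 ± 15.6 CPM in HuMgat2 on chow, 44.2 ± 16.8 CPM in WT on HFD and 42.7 ± 4.51 CPM in WT on chow. In all 3 genes each group overlapped with the next in order of level.

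The diet difference in HuMgat2 was -0.23 (95% interval -0.65 to 0.20) for Axin2, -0.16 (-0.52 to 0.20) for Lgr5 and -0.22 (-0.72 to 0.27) for Tbx3, in log2 units from edgeR, with adjusted p = 0.507, 0.587 and 0.587. In WT it was 0.12 (95% interval -0.31 to 0.55) for Axin2, -0.39 (-0.75 to -0.034) for Lgr5 and 0.046 (-0.45 to 0.55) for Tbx3, with adjusted p = 0.741, 0.131 and 0.927 from edgeR. Library 4 was the highest of the WT HFD group in each of the 3 genes, at 13.7 CPM for Axin2, 13.7 CPM for Lgr5 and 59.9 CPM for Tbx3. Without it the WT diet difference of Lgr5 was called (log2 -0.57, adjusted p = 0.0191), and those of Axin2 and Tbx3 changed sign to -0.087 and -0.13 (adjusted p = 0.811 and 0.770). The sign of Tbx3 also changed without WT HFD library 1 (log2 -0.11) and without WT chow library 8 (log2 -0.015). In WT on HFD Tbx3 had 57.6 CPM in library 1, against 29.8 CPM in library 2 and 29.7 CPM in library 3.

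**Figure D3:**
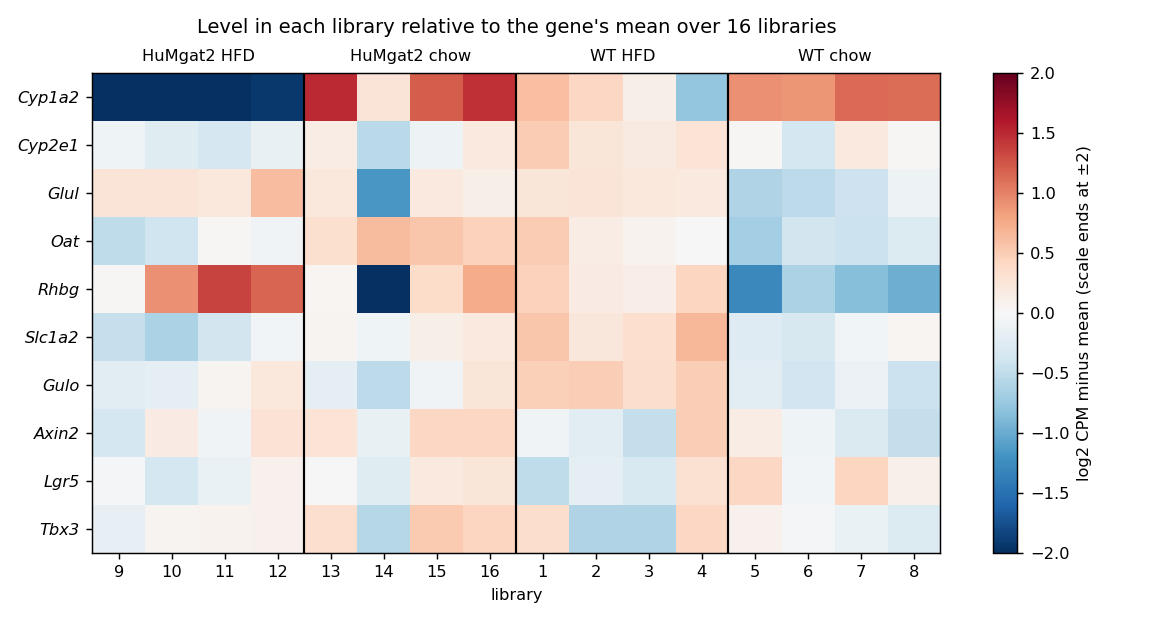
Log2 CPM of each gene in each of 16 libraries minus the mean of that gene over the 16, with groups in blocks from HuMgat2 HFD at the left to WT chow at the right (colour scale ends at -2 and 2). Library 14 is below the other HuMgat2 chow libraries in 9 of 10 genes, with the deepest deviation in Rhbg, and library 4 is the lowest WT HFD library in Cyp1a2.

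Up to 3 genes with the most similar profile to each of the 10 were taken from 14117 genes with a mean of at least 1 CPM, by the root mean square difference of centred log2 CPM over 16 libraries. Axin2 and Tbx3 were each other's nearest gene, at 0.21, where the spread of each about its own mean was 0.31 for Axin2 and 0.36 for Tbx3. Cyp1a2, with a spread of 1.39, had Cyp2c53-ps (0.44), Cyp2c54 (0.46) and Cdh1 (0.49) nearest. Oat had Mnt (0.21), Lhpp (0.23) and Slc38a3 (0.24), and Slc1a2 had Slc9a3r1, Gpr155 and Bst2 (all at 0.17). Glul had Them7 (0.22), Cenpo and Frk (both at 0.23), and Gulo had Pdxk and Acox3 (both at 0.13). Rhbg had Dio1 (0.35), Tmem28 (0.36) and Inhbe (0.43), Lgr5 had Fbxo28, Stat5b and Plbd2 (all at 0.17), and Cyp2e1 had Sra1 (0.13), Ssh2 (0.14) and Ccnyl1 (0.15).

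Other genes of pericentral hepatocytes were taken from a list of 23, all tested. The counts of this and each later list stand beside the shares of all tested genes called in each comparison, given above. In HuMgat2 on HFD against chow 2 of the 23 rose and 9 fell, with a list median of -0.0073 on the log2 scale. Cyp2c54, a P450 enzyme that can share reads with its near-identical Cyp2c relatives, fell 12.2-fold (log2 -3.61 ± 0.38, adjusted p = 1.69e-05, edgeR). Avpr1a, a vasopressin receptor, fell (log2 -2.36 ± 0.33, adjusted p = 0.000190, edgeR), as did Cyp27a1, a sterol hydroxylase (log2 -0.94 ± 0.14, adjusted p = 0.000225, edgeR). Cldn2, a tight junction protein, rose, at 129 ± 7.27 CPM in HuMgat2 on HFD and 69.4 ± 6.43 CPM in HuMgat2 on chow (log2 0.89, adjusted p = 1.85e-05, edgeR).

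In WT on HFD against chow 3 of the 23 rose and 10 fell, with a list median of -0.49. Lect2, a secreted hepatokine, rose (log2 0.71), while the glutathione transferases Gstm1 (log2 -1.50) and Gsta3 (log2 -0.66) and Avpr1a (log2 -1.62) fell, with adjusted p = 0.000586, 0.000797, 0.00325 and 0.00370 from edgeR. On HFD 7 of the 23 were higher in HuMgat2 than in WT and 3 lower. Cldn2 (log2 0.78) and Aldh1a1, a retinaldehyde dehydrogenase (2.24-fold), were higher, with adjusted p = 6.43e-05 and 0.000564 from edgeR. Cyp2c54 (log2 -2.41) and Cyp27a1 (log2 -0.84) were lower, with adjusted p = 0.000420 and 0.000684 from edgeR. On chow 0 of the 23 were called between the genotypes, and in the interaction 4 were positive and 3 negative.

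Of 19 periportal genes, 1 rose and 11 fell in HuMgat2 on HFD against chow, with a list median of -0.52. Cps1, the entry enzyme of the urea cycle, fell (log2 -1.40 ± 0.17, adjusted p = 6.16e-05, edgeR), as did Hal, histidine ammonia-lyase (log2 -1.30 ± 0.17, adjusted p = 9.87e-05, edgeR). Cdh1, E-cadherin, fell 12.4-fold (log2 -3.63 ± 0.24, adjusted p = 2.05e-07, edgeR), and Fbp1, a gluconeogenic phosphatase, rose (log2 0.90, adjusted p = 0.000652, edgeR). In WT on HFD against chow 0 of the 19 rose and 4 fell, with a list median of -0.24, and Cdh1 fell 1.61-fold (adjusted p = 0.0347, edgeR). Set against WT on HFD, HuMgat2 had 1 of the 19 higher and 3 lower, on chow 0 were called, and in the interaction 0 were positive and 5 negative.

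**Figure D4:**
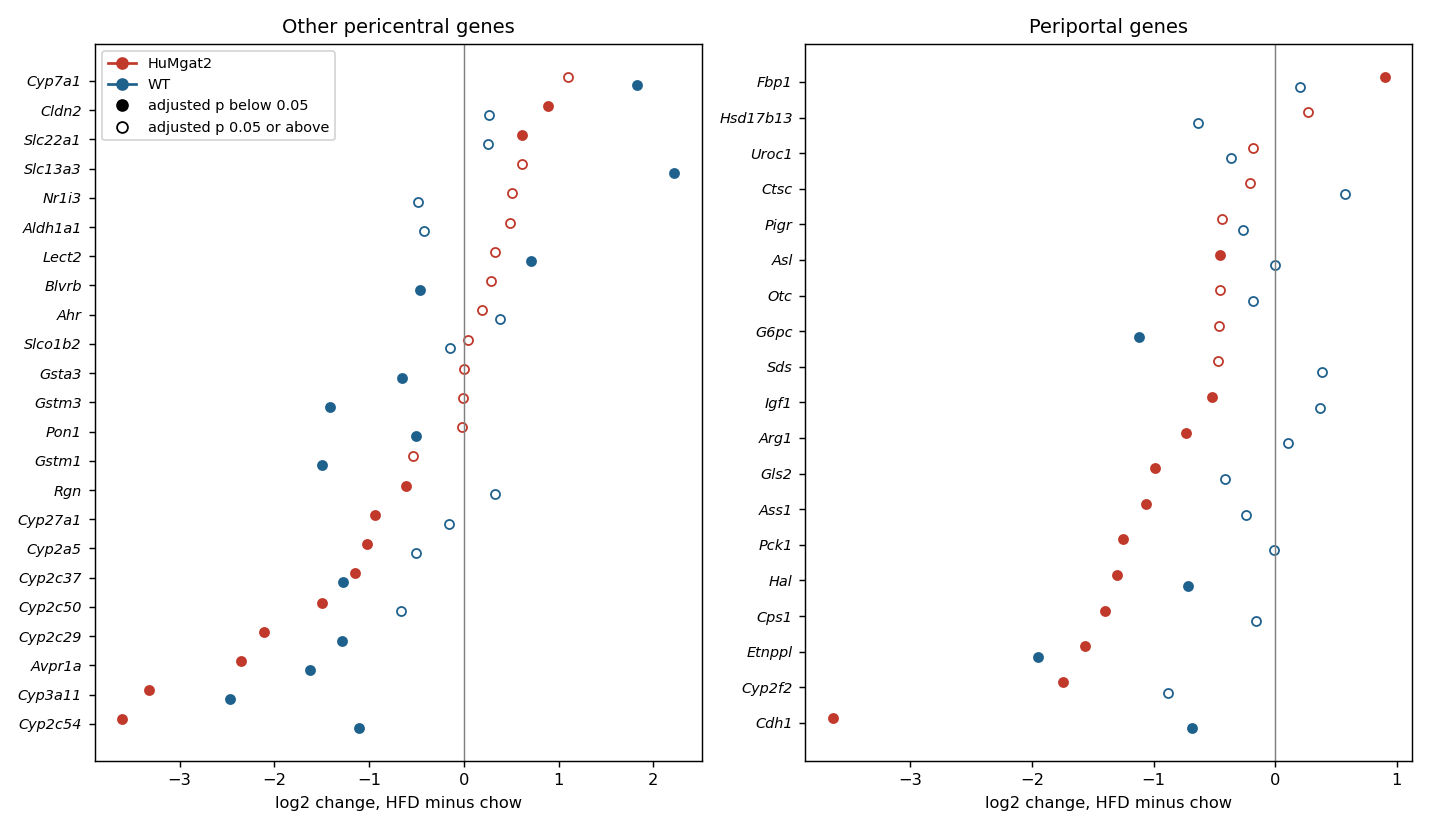
Log2 change on HFD against chow of 23 other pericentral genes (left) and 19 periportal genes (right) in HuMgat2 (red) and WT (blue), filled where the adjusted p from edgeR is below 0.05. In HuMgat2, 2 of the 23 rose and 9 fell, and 1 of the 19 rose and 11 fell. In WT, 3 of the 23 rose and 10 fell, and 0 of the 19 rose and 4 fell. Of all tested genes 7.56% rose and 6.4% fell in HuMgat2, and 8.37% rose and 6.74% fell in WT.

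Of 30 genes of the Wnt and beta-catenin pathway, 27 were tested. In HuMgat2 on HFD against chow 4 rose and 4 fell, with a list median of -0.054. Rspo3, the R-spondin made around the central vein, averaged 7.37 ± 0.545 CPM in HuMgat2 on HFD and 4.32 ± 0.532 CPM in HuMgat2 on chow (log2 0.77 ± 0.15, adjusted p = 0.00238, edgeR), and it was also higher in HuMgat2 than in WT on HFD (log2 0.72, adjusted p = 0.00437, edgeR). Tnfrsf19 rose in HuMgat2 on HFD (log2 1.48), and the receptors Lgr4 (log2 -0.46) and Fzd5 (log2 -0.86) fell, with adjusted p = 0.00218, 0.00513 and 0.0145 from edgeR.

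In WT on HFD against chow 2 of the 27 rose and 6 fell, with a list median of -0.13. The scaffold Axin1 (log2 -0.59), the transcription factor Tcf7l2 (log2 -0.57) and the co-receptor Lrp5 (log2 -0.32) fell and the receptor Fzd4 rose (log2 0.82), with adjusted p = 0.00395, 0.0127, 0.0134 and 0.0196 from edgeR. Of the 27, 3 were higher and 1 lower in HuMgat2 than WT on HFD. On chow 0 were called, and in the interaction Lrp5 alone was called (log2 0.54, adjusted p = 0.0103, edgeR).

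Of 10 genes of the aryl hydrocarbon receptor, the ligand-activated factor that induces Cyp1a2, and its targets, 8 were tested. In HuMgat2 on HFD against chow 0 rose and 1 fell, Cyp1a1, at 0.616 ± 0.365 CPM in HuMgat2 on HFD and 1.62 ± 0.440 CPM in HuMgat2 on chow (log2 -1.37 ± 0.36, adjusted p = 0.0176, edgeR). Ahr itself had a log2 difference of 0.19 in that comparison (adjusted p = 0.749, edgeR). The WT diet difference of Cyp1a1 had the same sign and was not called (log2 -1.04 ± 0.35, adjusted p = 0.0569, edgeR). Its interaction was not called either (log2 -0.33, adjusted p = 0.778, edgeR). In WT on HFD against chow 2 rose and 2 fell. Arnt, the partner of the receptor, rose (log2 0.54, adjusted p = 0.000356, edgeR). Tiparp also rose, at 11.2 ± 5.21 CPM in WT on HFD and 6.37 ± 1.02 CPM in WT on chow (log2 0.80, adjusted p = 0.0423, edgeR). Ugt1a9 (log2 -2.51, adjusted p = 0.000521, edgeR) and Ugt1a6a (log2 -0.70, adjusted p = 0.00316, edgeR) fell. Ugt1a9 and Ugt1a6a share exons, and a read pair lying in shared exons is by default assigned to neither. In the HFD comparison of HuMgat2 with WT 2 were higher, Ugt1a9 (log2 2.05) and Nqo1 (log2 0.88), and 1 lower, Arnt (log2 -0.48). Their adjusted p were 0.00192, 0.0276 and 0.000667 from edgeR, in that order. On chow 0 were called, and in the interaction 1 was positive, Ugt1a9, and 1 negative, Arnt. The list medians were 0.17 in HuMgat2 and 0.074 in WT for the diet comparisons.

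Of 16 further genes of glutamine, ornithine and ammonium handling, 15 were tested. In HuMgat2 on HFD against chow 2 rose and 5 fell, with a list median of -0.23, and in WT 5 rose and 0 fell, with a list median of 0.36. The neutral amino acid transporter Slc1a4 rose in HuMgat2 (log2 1.10), where glutaminase Gls2 (log2 -0.99), the arginine transporter Slc7a2 (log2 -1.05) and the glutamine transporter Slc38a2 (log2 -0.77) fell, with adjusted p = 0.00117, 0.00146, 0.00949 and 0.0131 from edgeR. In WT proline dehydrogenase Prodh (log2 0.90), Aldh18a1 (log2 1.21), the glutamine transporter Slc38a3 (log2 0.57) and aspartate aminotransferase Got1 (log2 0.99) rose, with adjusted p = 0.00104, 0.00671, 0.00880 and 0.0249 from edgeR. Between HuMgat2 and WT on HFD 1 was higher and 3 were lower, and on chow 0 were called. In the interaction 0 were positive and 4 negative, Prodh (log2 -1.43), Slc38a3 (log2 -1.09), Gpt (log2 -0.58) and Got1 (log2 -1.47), with adjusted p = 0.000925, 0.00282, 0.0307 and 0.0399 from edgeR.

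All 7 other genes of the ascorbate pathway were tested. In HuMgat2 on HFD against chow 2 rose and 2 fell, and Rgn, the lactonase one step before Gulo, was one that fell (log2 -0.61 ± 0.15, adjusted p = 0.00981, edgeR). In WT on HFD against chow 2 rose and 2 fell, among them Ugdh, which uses up UDP-glucose to make UDP-glucuronate, which fell 2.85-fold (log2 -1.51 ± 0.13, adjusted p = 7.40e-06, edgeR), and the vitamin C transporter Slc23a1, which rose (log2 0.74, adjusted p = 0.00329, edgeR). Between HuMgat2 and WT on HFD 3 were higher and 1 lower, on chow 0 were called, and in the interaction Ugdh was positive (log2 1.76, adjusted p = 8.35e-05, edgeR) and Rgn negative (log2 -0.94, adjusted p = 0.0141, edgeR). The list medians were 0.28 in HuMgat2 and -0.21 in WT for the diet comparisons.

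The library kit keeps strand and the counting command in the file header sets no strand option, so strand did not separate genes whose exons overlap. The command also sets no option for multiple overlaps, and by default featureCounts then assigns a pair that overlaps exons of more than 1 gene to none of them. Glul shares 116 exonic bases with Teddm2, Slc1a2 189 with Gm13872, Axin2 209 with Gm11670 and Tbx3 115 with Tbx3os1, all on the other strand, and Glul shares 93 with Mir8114 on its own strand. Tbx3os1 held 1127 counts over the 16 libraries against 15428 for Tbx3, and the other 4 partners held 666 counts or fewer each. The 2 diet comparisons share no library, while each of them shares 4 libraries with each genotype comparison, so their values are not independent.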

How the data were processed

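Raw read counts per gene name were deposited by the authors as one table for 16 libraries. Per the file headers, featureCounts 2.0.1 counted read pairs on Ensembl 103 annotation of GRCm39, without strand or multi-mapping options. The submitters' processing notes name STAR 2.7, DESeq2 1.26.0 and the build mm39. The 64 sample records are 4 per library, so each library was used once. The count columns were matched to libraries by name.

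Here the counts of the 4 groups were fitted together in edgeR 4.0.16 (R 4.3.3) by quasi-likelihood after TMM scaling and filterByExpr, which left 17318 genes. The 5 contrasts were tested, two-sided, with Benjamini-Hochberg adjustment and no minimum fold. The 10 genes and the lists were chosen with earlier results of these data known. The lists share genes, so their counts are not independent. Gls2 is in the periportal list and that of glutamine handling, and Rgn in the other pericentral and ascorbate lists. Ahr is in the other pericentral and aryl hydrocarbon receptor lists. From each list the genes named are among the 4 called genes with the smallest adjusted p per comparison. Not every such gene is named. Ahr was named outside this rule, after its value was seen. DESeq2 1.42.0, other scalings and filters and leaving out libraries were run as alternatives. In these the 10 genes were followed singly and the list genes were not. The WT diet changes given for list genes therefore rest on a fit that includes library 4. The edgeR procedure was tested on simulated data. A gene among those with a profile like Gulo is not reported here.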

Additional observations from a re-analysis of the deposited data

Results flagged for a closer look

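In groups of 4 libraries, the gap of the highest or lowest library to its nearest neighbour, as a share of the range of the group, passed Dixon's 95% critical value for 4 samples in 3 of 40 combinations of gene and group, where chance gives about 1 in 20. Glul in HuMgat2 on chow had library 14 lowest (0.901), Glul in HuMgat2 on HFD had library 12 highest (0.900), and Tbx3 in HuMgat2 on HFD had library 9 lowest (0.879).

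The diet change differed between HuMgat2 and WT by the edgeR interaction test for 3 of the 10 genes, Cyp1a2 (log2 -2.54), Oat (log2 -1.35) and Slc1a2 (log2 -1.04). Among the named genes of the lists, the interaction log2 value was 0.76 for Blvrb, -2.50 for Cyp2c54, 0.63 for Cldn2 and -0.94 for Rgn among pericentral genes. It was 0.54 for Lrp5, 2.68 for Ugt1a9 and -0.49 for Arnt. It was -1.43 for Prodh, -1.09 for Slc38a3, -0.58 for Gpt and -1.47 for Got1, and 1.76 for Ugdh. Among periportal genes it was -2.95 for Cdh1, -1.24 for Cps1, -0.89 for Igf1 and -0.84 for Arg1.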

How the results depend on the processing

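No paired analysis was possible because the library numbers are not shared between groups. The alternative that leaves out both library 4 and library 14 was chosen after seeing the data. Over leaving out each library in turn, the genes called ranged from 1627 to 3394 for HFD against chow in HuMgat2 (2418 with all libraries), 1673 to 2670 in WT (2617), 1585 to 2711 for HuMgat2 against WT on HFD (2558), 53 to 204 on chow (88) and 529 to 1129 for the interaction (844). Of the 10 genes, 2 to 3, 3 to 6, 2 to 4, 1 to 2 and 3 to 4 were called in these comparisons, in that order. In the 2 WT groups alone 1452 genes were called. DESeq2 called 238 genes between the genotypes on chow. Between them on HFD it called 3081 genes, with 5 of the 10 among them. Without libraries 4 and 14, 2884 genes were called for diet in WT, 2751 between the genotypes on HFD, 381 on chow and 1471 in the interaction. Of the 10 genes, 7 were then called for diet in WT, 5 between the genotypes on HFD and 3 on chow.

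The signs that turned were all of differences not called. Without both libraries, Gulo had a diet difference of -0.035 in HuMgat2, Axin2 of -0.088 and Tbx3 of -0.13 in WT, and Cyp2e1 a genotype difference of 0.11 on chow. Leaving out single libraries gave -0.034 to 0.22 for Gulo, -0.087 to 0.25 for Axin2, -0.13 to 0.20 for Tbx3 and -0.12 to 0.11 for Cyp2e1 in the same comparisons. Between the genotypes on HFD it gave -0.065 to 0.27 for Axin2, -0.047 to 0.23 for Lgr5 and -0.10 to 0.23 for Tbx3. The cause of these changes was not tested. Another scaling moved the median log2 change of all genes by at most 0.025 in size. Rhbg, at 0.873 to 9.14 CPM, was the least precise of the 10 (SE up to 0.55 for the interaction).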
